A study of Homo sapiens with 10 samples.

Results

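The 10 genes described here encode the nuclear end of cyclic AMP signalling. They are the transcription factors CREB1, CREM and ATF1, the acetyltransferase coactivators CREBBP and EP300, the coactivators CRTC1, CRTC2 and CRTC3, and the kinases SIK1 and SIK2. They were taken by symbol from a deposited table of 20379 genes, which lists all 10 of them. All 10 passed the filter of a mean of at least 1 FPKM (sequenced fragments scaled to transcript length and library size), as did 12352 genes in all. RNA came from DBTRG-05MG and U87, established human glioblastoma cell lines, after 0, 6, 12, 24 and 48 h of dibutyryl cAMP, a derivative of cyclic AMP that enters cells. The labels give a dose of 1 mM for every library, and these were followed, although the series' design text differs from them in the unit of dose and the length of treatment. Each line and time had 1 library, so the series holds 10 libraries and no replicates, and no untreated library of the later times was analysed here. Time in dibutyryl cAMP and time in culture therefore cannot be told apart.

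Cyclic AMP releases the catalytic subunits of protein kinase A, which phosphorylate CREB1, CREM and ATF1, basic leucine zipper proteins that bind the cyclic AMP response element (CRE). Phosphorylated CREB recruits CREBBP and EP300, which acetylate histones. The CRTC proteins, held in the cytoplasm while phosphorylated by salt-inducible kinases (SIKs), enter the nucleus when protein kinase A inhibits those kinases. CREM and SIK1 are textbook CREB targets that feed back on the pathway. An internal promoter of CREM gives the short repressor ICER, and SIK1 restrains the CRTC proteins. Most of this control acts on proteins, which RNA levels do not measure.

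The sequences before annotated starts of CREM, SIK1 and SIK2, the genes above 0 h in most later libraries, are shown because a CRE is the element these factors bind. RefSeq windows on GRCh38.p14, each from 250 bases before to 50 bases after a start, were found for 9 of the 10 genes. Letters in capitals match TGANGTCA, which includes the full CRE TGACGTCA, or the CRE core TGACG, on either strand. The stretches of CREM (plus strand) are chr10:35126596-35126790 before its first upstream start, chr10:35195068-35195097 before an internal start (A), and chr10:35195600-35195859 up to the tenth base of another internal start (B). For SIK1 the stretch is chr21:43427190-43427381 (minus strand), and for SIK2 it is chr11:111602199-111602408 (plus strand).
CREM upstream start: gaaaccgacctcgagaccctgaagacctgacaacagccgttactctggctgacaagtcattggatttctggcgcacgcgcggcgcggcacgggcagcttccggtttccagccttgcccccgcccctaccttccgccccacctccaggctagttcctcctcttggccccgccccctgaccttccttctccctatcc
CREM internal start A: ggctagTGATGTCAttgTGATGTCAgtcct
CREM internal start B: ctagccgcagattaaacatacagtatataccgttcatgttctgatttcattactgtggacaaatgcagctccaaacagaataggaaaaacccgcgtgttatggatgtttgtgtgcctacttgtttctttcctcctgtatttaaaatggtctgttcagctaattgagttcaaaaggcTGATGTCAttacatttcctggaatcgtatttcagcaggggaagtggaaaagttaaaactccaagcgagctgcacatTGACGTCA
SIK1: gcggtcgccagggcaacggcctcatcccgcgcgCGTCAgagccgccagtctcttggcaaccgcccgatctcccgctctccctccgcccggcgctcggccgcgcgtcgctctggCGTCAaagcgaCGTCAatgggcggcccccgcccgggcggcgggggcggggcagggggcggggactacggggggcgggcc
SIK2: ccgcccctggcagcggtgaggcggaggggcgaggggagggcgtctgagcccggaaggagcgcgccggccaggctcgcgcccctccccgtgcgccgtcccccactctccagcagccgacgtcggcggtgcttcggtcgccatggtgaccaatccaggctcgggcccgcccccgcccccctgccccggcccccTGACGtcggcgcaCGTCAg

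The full CRE was found in the windows of the last 2 of 7 CREM starts, which share the copy at chr10:35195852-35195859, and in no window of the other genes with one. Of 34943 promoter windows in the same table, 1.84% hold it. TGANGTCA, which occurs in 7.71% of windows, was found in 4 of the 7 CREM windows and in none of the other genes' windows. The core occurs in 24.5% of windows. Besides the full CREs, 1 further CREM window, at an upstream start whose sequence is not printed, has 2 copies. SIK1 has 3 copies, SIK2 has 2, CRTC3 has 1, and CREBBP has 2 in 1 of its 2 windows. The windows of CREB1, ATF1, EP300 and CRTC1 hold none of these motifs. Each full CRE also counts as 2 cores. The shares above are per window, and CREM, with 7 windows of which some overlap, had more chances of a match than genes with 1. The stretch B lies inside the CREM gene, is spanned by 29 of 48 GENCODE transcripts and overlaps the exons of 0 of them. Such matches describe letters, and no binding was measured here. The values are per gene, so ICER and full-length CREM cannot be told apart.

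**Figure D1:**
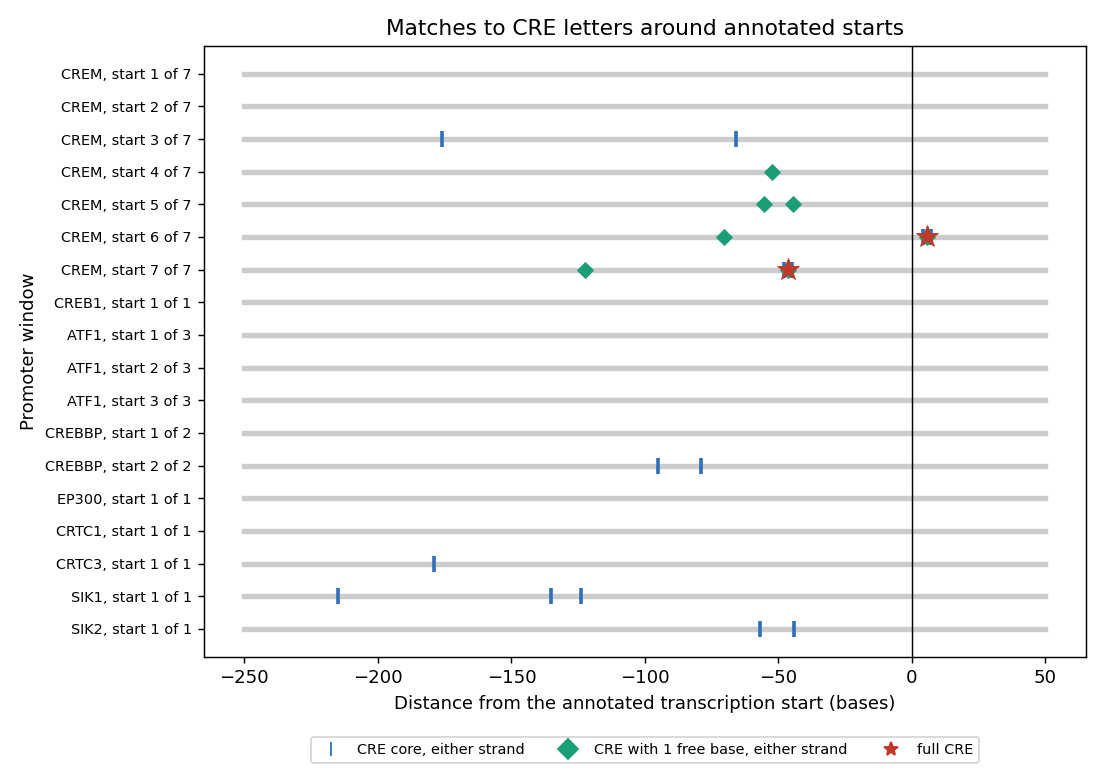
Positions of matches in the promoter windows of 9 genes. The horizontal axis is the distance in bases from the annotated start and each row is 1 window. CRE cores are bars, CREs with 1 free base are diamonds and full CREs are stars. Matches with all 8 letters lie in CREM windows, and SIK1 and SIK2 hold CRE cores.

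Depth was similar across libraries, at 100 to 116.8% of the depth at 0 h in DBTRG-05MG, estimated from the step of 1 read at low values. With about 8.9 M fragments in that library, 1 FPKM stands for roughly 8.9 fragments per kilobase of transcript, so counting error is larger for short transcripts at low FPKM. The glioma-line markers VIM (865.49 to 7245.95 FPKM) and CD44 (257.79 to 690.9 FPKM) were high in all 10 libraries. SOX2 was at 22.96 to 36.57 FPKM in DBTRG-05MG and listed at 0 in U87, and GFAP did not exceed 0.51 FPKM. The other markers of that list also differed. NES was at 4.94 to 46.78 FPKM and EGFR at 6.56 to 21.48 FPKM, while S100B, OLIG2 and PDGFRA did not exceed 0.5, 2.01 and 2.25 FPKM. Of the leukocyte markers, PTPRC reached 0.04, CD3E 0.07 and CD14 0.37 FPKM, while CD68, a lysosomal protein gene that other cells also express, was at 62.4 to 644.62 FPKM. The endothelial markers PECAM1 and CDH5 reached 0.02 and 0.05 FPKM, and the epithelial markers EPCAM and CDH1 reached 0.63 and 0.13 FPKM. The neuronal marker RBFOX3 reached 0.19 FPKM, and SYT1 was at 1.23 to 4.49 FPKM. Bulk RNA cannot separate fewer cells expressing a gene from less RNA per cell.

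Among the transcription factors, CREM stood out. Its gene spans chr10:35126791-35212958 (GENCODE 29, GRCh38, as for all genes here). CREM was at 2.05, 8.72, 6.53, 7.3 and 5.89 FPKM in DBTRG-05MG at 0, 6, 12, 24 and 48 h. In U87 it was at 2.57, 4.22, 3.38, 3.1 and 2.8 FPKM at the same times. CREM was lowest at 0 h and highest at 6 h in both lines. The 6 h level was 4.25 times that at 0 h in DBTRG-05MG and 1.64 times in U87. The 48 h level was still 2.87 times that at 0 h in DBTRG-05MG, against 1.09 times in U87. CREM was the 1 of the 10 genes above its 0 h level at all 4 later times in both lines, as were 2.55% of all genes tested. The 4 later times share the 0 h library of their line. With each library centred on its median, CREM, SIK1 and SIK2 were above 0 h in 8 of the 8 later libraries. The share of all genes that were so after centring was not computed. The smallest of these log2 changes were 0.16 for SIK1 (U87, 24 h) and 0.21 for SIK2 (U87, 48 h). As deposited, the same changes were -0.06 and -0.03.

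CREB1 (chr2:207529737-207603431), the founding member of the family, stayed within a narrow range. It was at 4.54, 4.66, 5.36, 5.77 and 4.11 FPKM in DBTRG-05MG and at 4.87, 3.59, 4.06, 4.2 and 4.28 FPKM in U87. The highest value was 1.4 times the lowest in DBTRG-05MG and 1.36 times in U87. The SD of log2(FPKM + 1) over the 5 times was 0.16 in DBTRG-05MG and 0.13 in U87, where the median over all genes tested was 0.24 and 0.3. The coding gene METTL21A overlaps CREB1 on the opposite strand, and the library protocol names no step that keeps strand. METTL21A was at 6.66 to 10.23 FPKM over the libraries.

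ATF1 (chr12:50763710-50821122), which pairs with CREB1 and binds the same element, was the most abundant of the 3 factors in every library. It was at 11.74, 11.13, 9.66, 13.04 and 9.86 FPKM in DBTRG-05MG and at 7.96, 8.78, 6.7, 7.27 and 4.83 FPKM in U87. Its U87 48 h value was the lowest of the 10, and every DBTRG-05MG value lay above every U87 value. The share of CREM in the summed FPKM of the 3 factors, which does not depend on how libraries are scaled, was 11.2% at 0 h and 35.6, 30.3, 28.0 and 29.7% at 6, 12, 24 and 48 h in DBTRG-05MG. In U87 it was 16.7% at 0 h and 25.4, 23.9, 21.3 and 23.5% at the later times. At 6 h CREM exceeded CREB1 in both lines, the reverse of 0 h. CREM still exceeded CREB1 at 48 h in DBTRG-05MG and did not in U87.

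**Figure D2:**
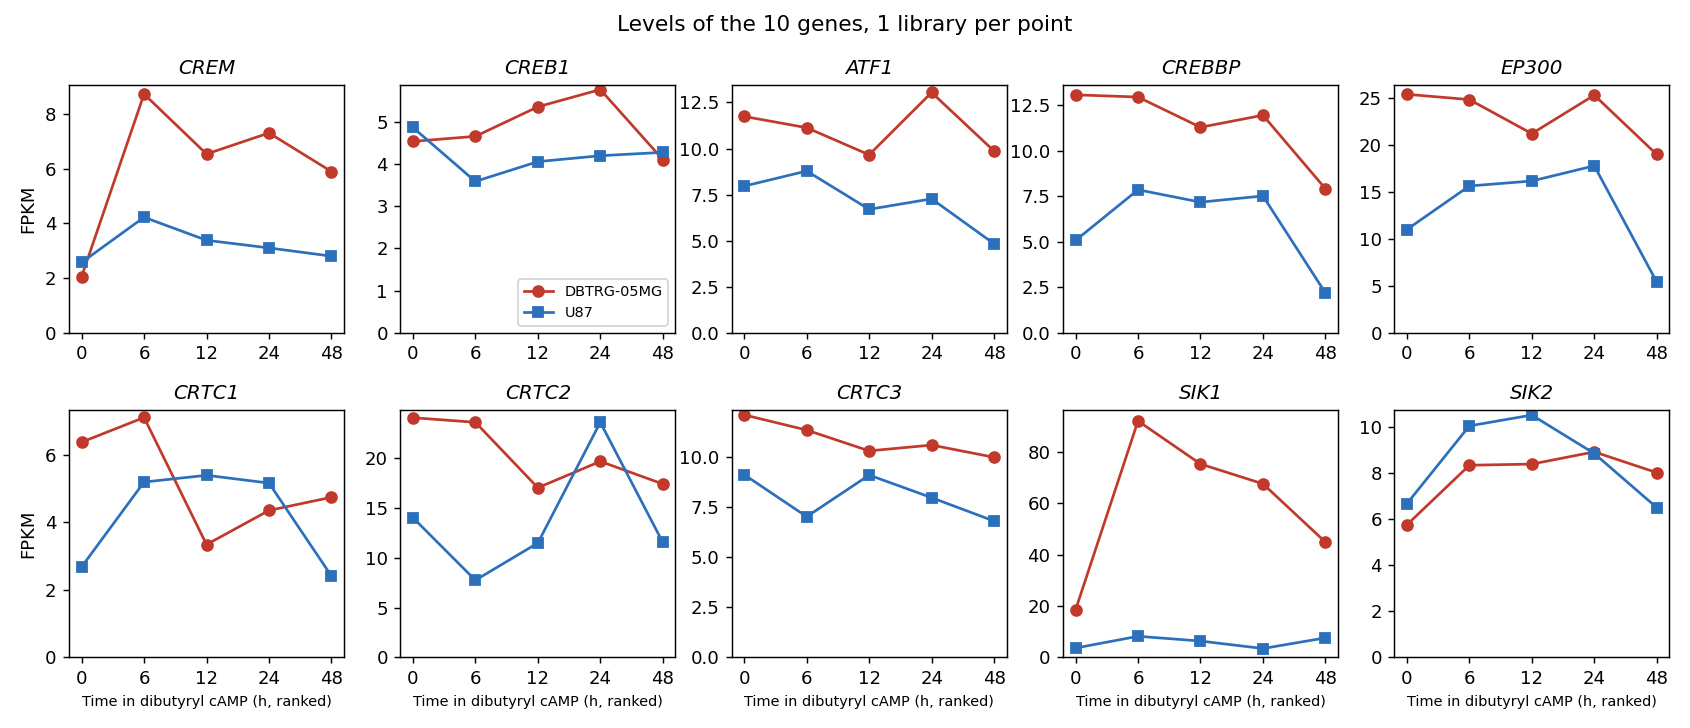
FPKM of the 10 genes (vertical axes, each starting at 0 and with its own scale) against time in dibutyryl cAMP (horizontal axis, times equally spaced). Each point is 1 library, with circles for DBTRG-05MG and squares for U87. CREM and SIK1 peak at 6 h in both lines, and CREBBP and EP300 are lowest in the U87 library of 48 h.

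SIK1, the inducible kinase of the SIK family, had the widest range of the 10 genes in DBTRG-05MG, but not in U87, where CREBBP, EP300 and CRTC2 varied more. SIK1 was at 18.5, 91.96, 75.22, 67.52 and 44.86 FPKM in DBTRG-05MG. In U87 it was at 3.65, 8.23, 6.38, 3.47 and 7.61 FPKM. The 6 h level was 4.97 times that at 0 h in DBTRG-05MG and 2.25 times in U87. All 4 later times were above 0 h in DBTRG-05MG, and 3 of 4 were in U87, where the 24 h library was at 0.95 times the 0 h level. The lowest DBTRG-05MG value was above the highest U87 value. Its log2 SD over time was larger than that of 98.3% of genes tested in DBTRG-05MG and of 84.1% in U87.

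GENCODE annotates a near-identical copy of SIK1, named SIK1B, at chr21:6111134-6123739, beside SIK1 at chr21:43414483-43427189. The RefSeq promoter windows of the 2 loci are the same in 300 of 300 bases. How reads shared by the copies were assigned is not given in the sources used here, so the SIK1 values are uncertain as to locus.

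SIK2 (chr11:111602391-111730853), a constitutively expressed relative that phosphorylates CRTC2, varied less over time, by similar amounts in both lines up to 24 h. It was at 5.76, 8.35, 8.4, 8.93 and 8.03 FPKM in DBTRG-05MG and at 6.68, 10.06, 10.53, 8.86 and 6.51 FPKM in U87. The 6 h level was 1.45 times that at 0 h in DBTRG-05MG and 1.51 times in U87. The later libraries were above 0 h except the U87 48 h library, at 0.97 times the 0 h level. PPP2R1B overlaps SIK2 on the opposite strand and was at 2.74 to 6.22 FPKM. The third kinase of the family, SIK3, which was not among the 10 genes, was at 8.75 to 10.87 FPKM in DBTRG-05MG, against 2.6 to 6.74 FPKM in U87.

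SIK1 made up 55.6% of the summed FPKM of the 3 kinases at 0 h in DBTRG-05MG and 83.5, 80.4, 77.3 and 72.8% at the later times. In U87 it made up 25.8% at 0 h and 35.6, 30.0, 18.2 and 45.5% later, and SIK2 was the most abundant kinase at 0, 6, 12 and 24 h. SIK1 was the most abundant kinase in all 5 DBTRG-05MG libraries and in the U87 library of 48 h.

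The CRTC coactivators showed no shared course. CRTC2 (chr1:153947669-153958625), the form best known from liver glucose production, was at 24.03, 23.57, 17.01, 19.65 and 17.39 FPKM in DBTRG-05MG. In U87 CRTC2 was at 14.01, 7.74, 11.47, 23.57 and 11.54 FPKM, with its lowest value at 6 h and its highest at 24 h. CRTC1 (chr19:18683677-18782333), the form best known from brain, was at 6.37, 7.1, 3.34, 4.35 and 4.74 FPKM in DBTRG-05MG and at 2.68, 5.19, 5.39, 5.16 and 2.41 FPKM in U87. The U87 values of CRTC1 thus formed a plateau from 6 to 24 h between lower values at 0 and 48 h, and the DBTRG-05MG values did not. CRTC3 (chr15:90529925-90645345), the third form, was at 12.13, 11.37, 10.33, 10.62 and 10.01 FPKM in DBTRG-05MG and at 9.14, 7.04, 9.12, 7.99 and 6.82 FPKM in U87. CRTC3 was the 1 of the 10 genes below its 0 h level at all 4 later times in both lines, as were 6.2% of all genes tested. That order held as deposited only. With each library centred on its median, CRTC3 was slightly above 0 h in 3 of the 8 later libraries (DBTRG-05MG at 6 h, U87 at 12 and 24 h, log2 changes of 0.02, 0.05 and 0.04). CRTC2 made up 54.1 to 56.8% of the CRTC sum in DBTRG-05MG and 38.8 to 64.2% in U87.

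CREBBP (chr16:3725054-3880726) and EP300 (chr22:41091786-41180079), paralogous acetyltransferases that many transcription factors share, kept nearly the same proportion while their levels differed between libraries. EP300 was at 25.42, 24.86, 21.23, 25.33 and 19.01 FPKM in DBTRG-05MG and at 11.01, 15.65, 16.18, 17.8 and 5.42 FPKM in U87. CREBBP was at 13.06, 12.94, 11.28, 11.94 and 7.91 FPKM in DBTRG-05MG and at 5.07, 7.85, 7.17, 7.51 and 2.19 FPKM in U87. Both genes were lowest at 48 h in each line, and both were higher at 6, 12 and 24 h than at 0 h in U87. CREBBP made up 28.8 to 34.7% of their sum over the 10 libraries. The 48 h level of CREBBP was 0.61 times that at 0 h in DBTRG-05MG and 0.43 times in U87, and for EP300 it was 0.75 and 0.49 times.

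Both acetyltransferase genes have long transcripts, up to 10803 bases for CREBBP and 9587 bases for EP300. SIK2 also has one, of up to 9678 bases, and its log2 changes at 48 h were 0.42 in DBTRG-05MG and -0.03 in U87. In U87 at 48 h, the 997 tested genes with a transcript of 8 kb or more had a median log2 change of -0.25, and the median over all genes tested was -0.15. In DBTRG-05MG at 48 h these medians were -0.01 and 0.02. The log2 changes of CREBBP and EP300 at 48 h were -0.66 and -0.40 in DBTRG-05MG, against -0.93 and -0.90 in U87. With libraries scaled within classes of transcript length, the mean log2 changes of both lines were -0.63 for CREBBP and -0.49 for EP300, against -0.79 and -0.65 as deposited. Without the U87 48 h library they were -0.43 and -0.16, and without the DBTRG-05MG 48 h library they were -1.15 and -1.14.

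**Figure D3:**
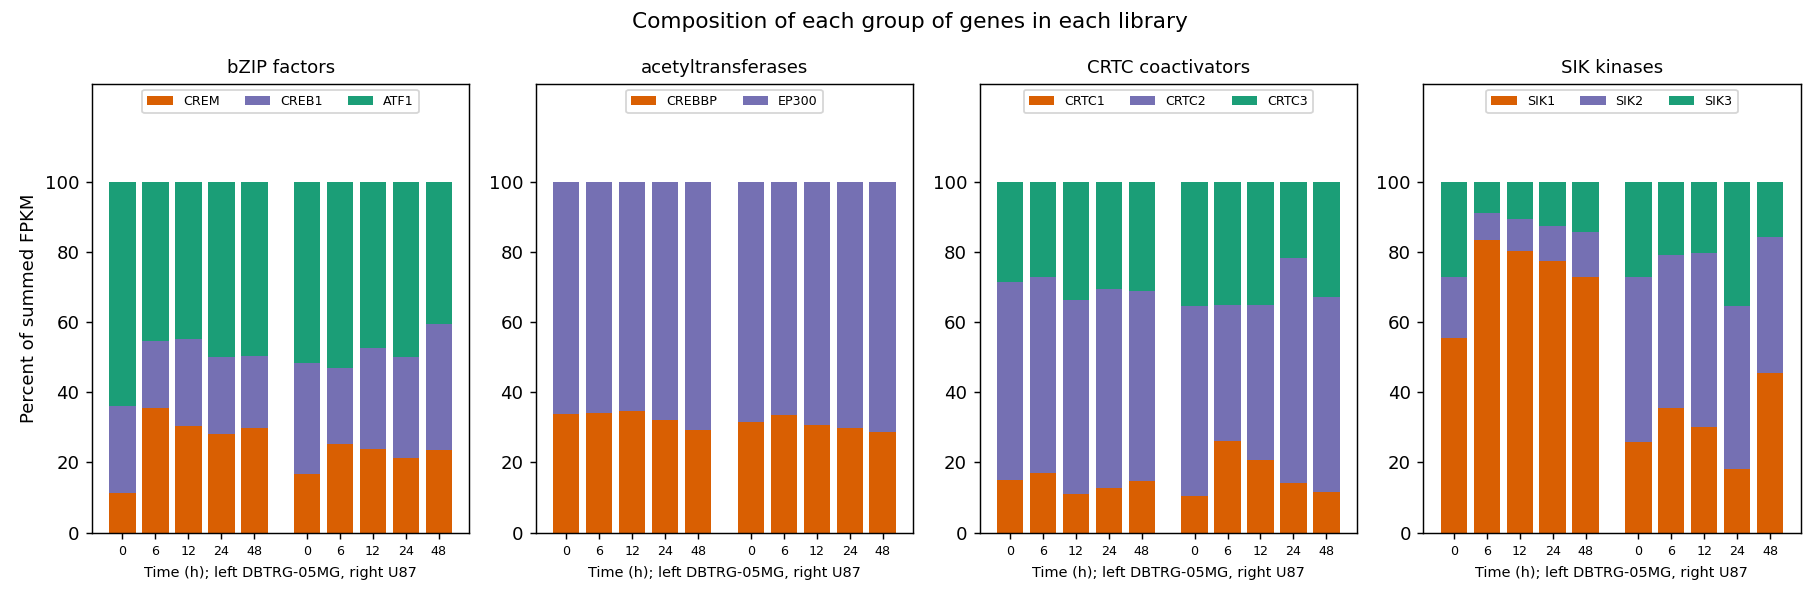
Percent of the summed FPKM of each functional group (vertical axis) taken by each gene, for each library (horizontal axis, time in h, DBTRG-05MG on the left and U87 on the right of each panel). SIK3 is included to complete the SIK kinases. The CREM share is 35.6% at 6 h, against 11.2% at 0 h, in DBTRG-05MG, and the CREBBP share lies between 28.8 and 34.7% in all libraries.

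Changes from 0 h were tested with limma over all 12352 genes, on the mean change of both lines in log2(FPKM + 1). The error combines how far the lines disagreed, pooled over the 5 times, with that typical of genes at a similar level. The first part has 4 degrees of freedom and the second has 5. A response of unequal size in the lines, as for CREM and SIK1, widens the error, and p-values say nothing about separate cultures. At 6 h 0 of the 10 genes passed an adjusted p of 0.05, as did 0.0081% of all genes (1 gene). At an unadjusted p of 0.05, 2 of the 10 passed at 6 h (CREM and SIK1), where 5.31% of all genes did.

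SIK1 had a mean log2 change of 1.62 ± 0.41 at 6 h (SE, n = 2 lines, 95% interval 0.69 to 2.55, limma adjusted p = 0.678). CREM had 1.11 ± 0.32 (SE, 95% interval 0.39 to 1.83, limma adjusted p = 0.726). SIK2 had 0.50 ± 0.23 (SE, 95% interval -0.03 to 1.03, limma adjusted p = 0.937). The mean change of CREB1 was -0.16, with a 95% interval from -0.70 to 0.38. For ATF1 it was 0.03, with an interval from -0.50 to 0.56.

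At 12 and 24 h 0 of the 10 genes again passed, with 0.0081% of all genes called at each time. At an unadjusted p of 0.05 CREM, SIK1 and SIK2 passed at 12 h (4.47% of all genes) and CREM at 24 h (3.51% of all genes). The mean log2 change of CREM was 0.80 at 12 h and 0.82 at 24 h, and that of SIK1 was 1.32 and 0.88 (SE 0.32 and 0.41, limma adjusted p of at least 0.984 for each). These means depend on the 0 h libraries. Without that of DBTRG-05MG, CREM was at 0.24 and 0.26 and SIK1 at 0.72 and 0.28, and without that of U87, CREM was at 1.36 and 1.38 and SIK1 at 1.91 and 1.48. At 48 h 0 of the 10 genes and 0% of all genes passed. CREBBP (-0.79 ± 0.28, SE, limma adjusted p = 0.312) and SIK1 (1.06 ± 0.41, SE, limma adjusted p = 0.347) had an unadjusted p under 0.05, as did 12.2% of all genes.

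The median log2 change of the 10 genes was 0.24, 0.07, 0.20 and -0.27 at 6, 12, 24 and 48 h, and that of all genes tested was -0.05, -0.02, -0.06 and -0.07. By size alone, CREM and SIK1 were at least 2-fold above 0 h on the log2(FPKM + 1) scale at every later time in DBTRG-05MG. The share of all genes tested that did so was 1.17% at 6 h, 2.47% at 12 h, 3.18% at 24 h and 4.57% at 48 h. In U87 0 of the 10 genes did so at any time, where 2.73, 2.61, 2.15 and 2.14% of all genes did, and the U87 changes of SIK1 at 6 and 48 h were 0.99 and 0.89. On that scale none of the 10 genes was at least 2-fold lower at any time in either line, although the FPKM of CREBBP and EP300 in U87 at 48 h, without the added 1 FPKM, were 0.43 and 0.49 times those at 0 h. The shares of all genes that were at 6, 12, 24 and 48 h were 0.81, 1.61, 1.6 and 5.16% in DBTRG-05MG, against 2.43, 2.67, 4.5 and 4.32% in U87.

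**Figure D4:**
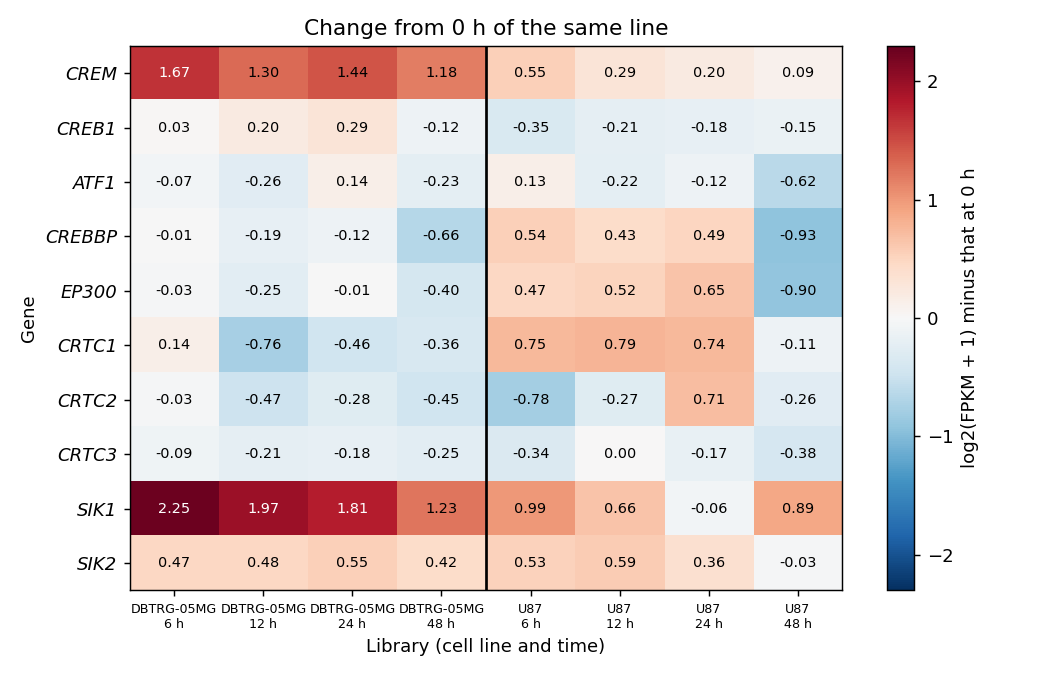
Change of each gene from 0 h of its own line, as log2(FPKM + 1) (colour and printed value), for each later time in DBTRG-05MG (left) and U87 (right). CREM and SIK1 have the largest values, up to 1.67 and 2.25 in DBTRG-05MG at 6 h, and CREBBP and EP300 have -0.93 and -0.90 in U87 at 48 h.

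A straight trend over the rank of time, shared by the lines, was called for 0 of the 10 genes and 0% of all genes. At an unadjusted p of 0.05 it was met by 0 of the 10 genes and 15.1% of all genes. A difference in trend between the lines was called for 0 of the 10 genes and 0.0162% of all genes (2 genes), and at an unadjusted p of 0.05 by 0 of the 10 and 13.4% of all genes. CREM had the largest such difference, 0.23 ± 0.18 log2 units per time step (SE, DBTRG-05MG minus U87, limma adjusted p = 0.576). The difference between the lines at 6 h alone has no replicate against which to test it.

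The lines were furthest apart in the level of SIK1. Taking the 5 times as pairs, 7 of the 10 genes were called higher in DBTRG-05MG and 0 higher in U87, beside 35.2 and 19.7% of all genes tested (55.0% in either direction). At an unadjusted p of 0.05, 7 of the 10 and 60.1% of all genes passed. A difference in level between these lines was common among genes in general. By order alone, 5 of the 10 (ATF1, CREBBP, EP300, CRTC3 and SIK1) were higher in DBTRG-05MG than in U87 at all 5 times, as were 35.3% of all genes. At all 5 times 0 of the 10 were lower in DBTRG-05MG, as were 19.8% of all genes. Libraries of a line are the same line at several times, so these p-values measure scatter over times. SIK1 averaged 59.61 ± 28.55 FPKM in DBTRG-05MG, against 5.87 ± 2.21 FPKM in U87 (SD, n = 5 times each). The DBTRG-05MG level of SIK1 was 5.07 to 19.47 times that in U87 at the same time, and the log2 difference was 3.02 ± 0.26 (SE, limma adjusted p = 1.14e-05). EP300 averaged 23.17 ± 2.9 FPKM in DBTRG-05MG, against 13.21 ± 5.03 FPKM in U87 (SD, n = 5 times each). Its log2 difference was 0.85 ± 0.20 (SE, limma adjusted p = 0.00582), and that of CREBBP was 0.91 ± 0.18 (SE, limma adjusted p = 0.00233). ATF1 differed by 0.59 ± 0.15 (SE, limma adjusted p = 0.00827).

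The other 3 calls had larger adjusted p-values, though not all were smaller in size, and did not withstand all other settings. CREM differed by 0.67 (limma adjusted p = 0.02), CRTC2 by 0.61 (limma adjusted p = 0.0427) and CRTC3 by 0.40 (limma adjusted p = 0.0345). The median log2 difference of all genes was 0.18. Centring each library on its median left CREM at 0.40 (limma adjusted p = 0.0975), CRTC2 at 0.35 (limma adjusted p = 0.287) and CRTC3 at 0.14 (limma adjusted p = 0.427). ATF1 then stayed only just under the threshold, at 0.32 (limma adjusted p = 0.0498). That centring turned the split of all calls from 4350 higher and 2439 lower in DBTRG-05MG into 3166 higher and 3784 lower, and SIK2 was then called lower in DBTRG-05MG at -0.35 (limma adjusted p = 0.04). The CREM call was also lost without any 1 of the 8 libraries at later times (limma adjusted p from 0.0544 to 0.0632). The CRTC2 call was lost without any 1 of the 8 libraries other than those at 24 h (0.0833 to 0.133), and the CRTC3 call without any 1 of all 10 libraries (0.0528 to 0.102). CREB1 (0.18, 95% interval -0.16 to 0.52), CRTC1 (0.28, -0.26 to 0.81) and SIK2 (-0.09, -0.42 to 0.25) were not called.

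On the FPKM scale, which divides by transcript length, the order of mean levels in DBTRG-05MG was SIK1, EP300 (23.17 ± 2.9 FPKM), CRTC2 (20.33 ± 3.33 FPKM), CREBBP (11.43 ± 2.1 FPKM), ATF1 (11.09 ± 1.4 FPKM) and CRTC3 (10.89 ± 0.85 FPKM). SIK2 (7.89 ± 1.24 FPKM), CREM (6.1 ± 2.5 FPKM), CRTC1 (5.18 ± 1.53 FPKM) and CREB1 (4.89 ± 0.67 FPKM) followed (SD over 5 times). In U87 it was CRTC2 (13.67 ± 5.97 FPKM), EP300, SIK2 (8.53 ± 1.87 FPKM), CRTC3 (8.02 ± 1.11 FPKM), ATF1 (7.11 ± 1.49 FPKM), CREBBP (5.96 ± 2.37 FPKM), SIK1, CREB1 (4.2 ± 0.46 FPKM), CRTC1 (4.17 ± 1.48 FPKM) and CREM (3.21 ± 0.64 FPKM). In DBTRG-05MG, the steps from SIK1 to EP300, from CRTC2 to CREBBP and from CRTC3 to SIK2 were larger than the larger of both SDs, and other neighbours in that order were closer than that. In U87 every pair of neighbours was closer than the larger of their SDs.

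The CREB target genes were examined next, as a list of known targets without CREM and SIK1. The list was chosen with earlier results of these data known, so its counts are not independent of them. Of 32 listed, 22 passed the filter and 0 were called at any time. That filter averages all 10 libraries, so a target low at 0 h could pass on its later values, while targets that stayed low were left out. NR4A2, NR4A3 and FOSB started below 1 FPKM in both lines and passed in this way. The counts and medians of this list, at every time, may therefore lean upward, by an amount that was not computed. At 6 h 15 of the 22 were higher in both lines and 3 lower in both. The median over the 22 of the mean log2 change was 0.88 where that of all genes was -0.05. The share of all genes higher or lower in both lines at 1 time was not computed, here or for the lists below. On the log2(FPKM + 1) scale, 14 of the 22 were at least 2-fold higher at 6 h in DBTRG-05MG, where 1.17% of all genes were, against 8 of 22 in U87, where 2.73% of all genes were. DIO2, the enzyme that activates thyroid hormone, was at 19.52 FPKM at 6 h and 2.74 FPKM at 0 h in DBTRG-05MG, and at 154.69 FPKM at 6 h and 3.68 FPKM at 0 h in U87. Its mean log2 change was 3.76 ± 0.51 (SE, limma adjusted p = 0.118). PDE4B, a phosphodiesterase that degrades cyclic AMP, was at 11.64 FPKM at 6 h and 2.05 FPKM at 0 h in DBTRG-05MG, and at 36.31 FPKM at 6 h and 7.52 FPKM at 0 h in U87. Its log2 change was 2.05 in DBTRG-05MG and 2.13 in U87, nearly the same in both lines (mean 2.09 ± 0.30, SE, limma adjusted p = 0.123).

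DUSP1, a phosphatase of MAP kinases, had a log2 change of 3.30 in DBTRG-05MG, against 1.34 in U87 at 6 h. NR4A2, a nuclear receptor that was below 1 FPKM at 0 h in both lines, had 1.27 in DBTRG-05MG and 2.67 in U87. CREM and SIK1 had the larger log2 change in DBTRG-05MG, as DUSP1 did, while DIO2 and NR4A2 had the larger one in U87. Over the 22 targets the median log2 change at 6 h was 1.22 in DBTRG-05MG and 0.70 in U87, and these differences between lines were not tested for want of replicates. The list median was 0.89, 0.96 and 0.63 at 12, 24 and 48 h, when 16, 19 and 17 of the 22 were higher in both lines.

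**Figure D5:**
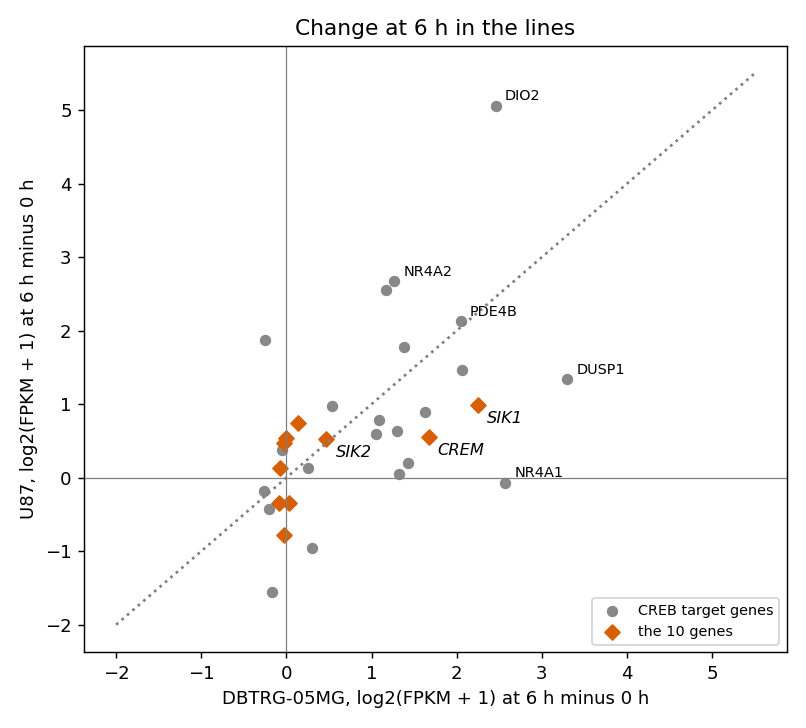
Log2 change at 6 h from 0 h in U87 (vertical axis) against that in DBTRG-05MG (horizontal axis) for the 10 genes and for the tested CREB targets, each point 1 gene on the log2(FPKM + 1) scale. CREM and SIK1 lie to the right of the line of equal change, and DIO2 lies above it with 5.06 in U87.

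Genes that respond to handling and heat shock were at mixed values beside these. Of 7 tested, 2 were higher and 3 lower in both lines at 6 h, with a median of 0.18. The 2 higher in both lines, FOS and EGR1, are both on the target list as well. FOS, an immediate early gene that is also on the target list, was at 5.44 FPKM at 6 h and 1.62 FPKM at 0 h in DBTRG-05MG, and at 1.97 FPKM at 6 h and 0.92 FPKM at 0 h in U87. IER2, another immediate early gene, had a log2 change of 1.24 in DBTRG-05MG, against -0.26 in U87. The part of handling in the CREM and SIK1 values was not tested.

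The neighbours of the 10 genes in the pathway had group medians near 0 at 6 h, and 0 of them were called at any time or in either trend. Of 13 other CREB and ATF factors, 5 were higher and 6 lower in both lines at 6 h, with a median log2 change of -0.08. CREB3L2, a membrane-bound relative that is processed in the Golgi, was at 20.21 FPKM at 6 h and 11.03 FPKM at 0 h in DBTRG-05MG, and at 95.09 FPKM at 6 h and 42.37 FPKM at 0 h in U87 (mean 0.98 ± 0.24, SE, limma adjusted p = 0.626). ATF3, a stress-induced factor that is also on the target list, had log2 changes of 1.09 in DBTRG-05MG and 0.78 in U87.

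Of 24 tested genes around the SIKs (the LKB1 complex, related kinases, 14-3-3 proteins and class IIa deacetylases), 6 were higher and 11 lower in both lines at 6 h, with a median of -0.04. STK11, which encodes LKB1, the kinase that activates SIKs, was at 27.04 FPKM at 6 h and 36.27 FPKM at 0 h in DBTRG-05MG, and at 13.13 FPKM at 6 h and 24.83 FPKM at 0 h in U87 (mean -0.64 ± 0.22, SE, limma adjusted p = 0.821). HDAC9, a class IIa deacetylase that SIKs phosphorylate, was at 8.57 FPKM at 6 h and 14.54 FPKM at 0 h in DBTRG-05MG, and at 1.37 FPKM at 6 h and 3.5 FPKM at 0 h in U87 (mean -0.81 ± 0.32, SE, limma adjusted p = 0.901).

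Among 12 tested acetyltransferases and partners of CREBBP and EP300, 2 were higher and 5 lower in both lines at 6 h (median -0.04). At 48 h 8 were lower in both (median -0.33, against -0.07 for all genes). Over classes of transcript length, 43.3 to 50.8% of genes in DBTRG-05MG and 54.0 to 73.4% in U87 were below 0 h then. CITED4, which binds CREBBP and EP300, was at 22.36 FPKM at 6 h and 10.13 FPKM at 0 h in DBTRG-05MG and listed at 0 in U87 at both times. KAT5, a MYST acetyltransferase, had log2 changes of 0.20 in DBTRG-05MG and 0.56 in U87. The 11 phosphatase genes that act on CREB or CRTC proteins had a median of 0.03 at 6 h, and the 9 subunits and inhibitors of protein kinase A had 0.01. PRKAR1A, the regulatory subunit that holds the kinase inactive, was at 41.46 FPKM at 6 h and 30.82 FPKM at 0 h in DBTRG-05MG, and at 51.09 FPKM at 6 h and 36.3 FPKM at 0 h in U87.

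Of the 8406 genes that averaged 5 FPKM or more, those most like CREM over the 10 libraries, after each line was centred on its own mean, were TWIST2, YIPF5, CXCR4, COL4A1 and SIK1, with Pearson r of 0.943, 0.933, 0.919, 0.915 and 0.897. TWIST2 was listed at 0 in U87 at 0 and 6 h, where CXCR4 and COL4A1 were at or below 0.14 FPKM, so for these the likeness rests on the DBTRG-05MG libraries. YIPF5 was at 42.5 FPKM at 6 h and 17.17 FPKM at 0 h in DBTRG-05MG, and at 34.22 FPKM at 6 h and 23.45 FPKM at 0 h in U87. Those most like SIK1 were YIPF5, FSTL3, SYAP1, COX17 and GNG11 (r of 0.94, 0.915, 0.897, 0.895 and 0.89). YIPF5 was thus near both genes. These are descriptions over 10 libraries, in which all genes compared share the same libraries and the 5 libraries of a line come from 1 time course.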

How the data were processed

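Poly(A) RNA of both lines was sequenced at 5 times of dibutyryl cAMP. The submitters' processing notes name HISAT, Bowtie2, RSEM and the build hg38, without versions, and further steps are not given in the sources used here. The deposited table gives FPKM values per gene. The labels name no unit, so FPKM was inferred from the values. A value of 0.002 was read as 0. Counts were not used here, and depth is known only roughly, so values carry no counting interval.

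Changes used log2(FPKM + 1) and limma 3.58.1 in R 4.3.3, with a mean-variance trend, for genes that averaged 1 FPKM or more, with Benjamini-Hochberg adjustment over all of them (threshold 0.05). Line was the block for times, and time for the difference between lines. Libraries pair by line because each line supplied its own series, and 717 genes differed 4-fold or more between lines in 1 direction at all 5 times. Fits were tested on simulated data with equal changes added to both lines at 48 h. Of 50 genes for each size, 38% were called at a log2 change of 1 and 82% at 2. Of unchanged genes, 0.0494% were called. Changes of such size can therefore be missed. Positions are GENCODE 29, with promoter windows from RefSeq on GRCh38.p14. Tables and figures used Python 3.11.15, pandas 2.3.3 and matplotlib 3.10.9.

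The 10 genes and the lists were chosen with earlier results of these data known. Genes outside the 10 were named by a rule: SIK3, up to 4 per list with the largest mean change at 6 h, and the 5 most like CREM or SIK1. Alternatives were a pseudocount of 0.1 FPKM, no filter, median scaling, no mean-variance trend, no block, time in hours, each library left out and, added after seeing the data, scaling within classes of transcript length.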

Additional observations from a re-analysis of the deposited data

How the results depend on the processing

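None of the 10 genes was called over time under any alternative run, including every left-out library. The calls of SIK1, CREBBP, EP300 and ATF1 between lines held under all of these runs (SIK1 from 2.75 to 3.26). That of ATF1 held only narrowly with median scaling (0.32, limma adjusted p = 0.0498). Counts of all genes called were 1 at 6, 12 and 24 h as reported. They became 3, 3 and 2 with a pseudocount of 0.1 FPKM, 0, 3 and 2 with no filter on low values, 0 at each with median scaling, and 0 at each without the replicate block, that is, without pairing libraries by line. Scaling within transcript length classes, chosen after seeing the data, gave 2 at 6 h and 0 at 24 h. The common trend had 0 calls, but 1 with median scaling and 252 (57 higher, 195 lower) with time in hours. The trend difference had 2 calls, and 1 with the smaller pseudocount, 5 with no filter, 7 with median scaling, 7 with length classes and 14 with time in hours. Length classes left 4 of the 10 genes called between lines, against 7 as reported. With 1 library left out the counts were 0 to 2 at 6 h, 0 to 3 at 12 h, 0 to 3 at 24 h, 0 to 2 at 48 h, 0 to 73 for the common trend, 1 to 68 for the trend difference and 5806 to 6583 (6789 as reported) between lines, with 4 to 5 of the 10 genes called there. The sign turned for CREB1 between lines (-0.09 with median scaling, -0.14 with length classes), for CRTC1 (-0.04 with length classes) and for SIK2 at 48 h without the DBTRG-05MG 48 h library (-0.03, range -0.03 to 0.42). The 6 h change with 1 library left out was 0.55 to 1.67 for CREM, 1.02 to 2.22 for SIK1 and 0.40 to 0.59 for SIK2, with the lowest CREM and SIK1 values without the DBTRG-05MG library of 0 h and the highest without that of U87. Leaving out these 0 h libraries likewise set the ranges at 48 h, 0.08 to 1.19 for CREM and 0.46 to 1.66 for SIK1. Without the 0 h library of 1 line, the change is measured from the 0 h library of the other line alone. The CREM values of 0.55 and 1.67 at 6 h equal the log2 changes of U87 and of DBTRG-05MG. The SIK1 values of 1.02 and 2.22 lie near its log2 changes of 0.99 in U87 and 2.25 in DBTRG-05MG. With 1 library per line and time, a difference in response between lines has no error of its own, and low FPKM on a short transcript, as for CREM, rest on few fragments.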
